A study of Mus musculus with 9 samples.

Results

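The Notch receptors Notch1, Notch2 and Notch3, the ligands Dll1, Dll4, Jag1 and Jag2, and the target genes Hes1, Hey1 and Heyl are described here in adipose stromal cells and in fibro-adipogenic progenitors of muscle. These 10 genes were taken by name from the 26214 genes of the expression table. Their values were not used for this, but earlier results of these data were known. All 10 had values and passed the filter on low values, a mean of at least 10 over the 8 libraries compared.

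RNA sequencing was performed on male C57Bl/6 mice of 8 to 12 weeks, 1 day after NaCl (the non-injured control) or 50% glycerol, which damages muscle fibres, had been injected into the right quadriceps. The study's methods give the strain as C57Bl/6 J. Stromal cells of the subcutaneous adipose tissue (ScAT) after NaCl (ASCs, 3 libraries) and of the quadriceps after NaCl (FAPs, 2 libraries) or glycerol (injured FAPs, 3 libraries) had been depleted of CD45+ and CD31+ cells and then selected for Sca-1. The 1 library of CD31+CD45+ cells, from injured muscle, entered no test and served as a reference for endothelial RNA. The study's triplicates came from a pool of cells of 3 animals, so the libraries may be technical replicates and the p-values measure only the spread between these libraries. The study also describes its data as coming from biological replicates, so the kind of replicate stays unclear. Of the FAPs, 2 libraries were available here. The libraries held 24052508 to 27481573 reads on genes, and the CD31+CD45+ library held 13091077.

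Notch receptors are single-pass membrane proteins that bind Delta-like or Jagged ligands on a neighbouring cell. Ligand binding exposes the receptor to ADAM proteases and then to gamma-secretase, and the released intracellular domain joins Rbpj and Mastermind-like proteins in the nucleus to switch on genes of the Hes and Hey families. In skeletal muscle the pathway is best known for keeping satellite cells quiescent, and in blood vessels for arterial identity and for the coat of smooth muscle cells and pericytes.

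The labels were first set against marker genes. Pdgfra, the receptor that marks both stromal populations, lay between 10837 and 25268 normalised reads (read counts divided by the size factor of the library) in the 8 libraries and at 119 in the CD31+CD45+ library. Over the 10 FAP and ASC markers, the median percent of the CD31+CD45+ value was 2142 to 11172% in the 8 libraries. Ly6a, the gene of Sca-1, went the other way in FAPs (16542 and 10823, against 17672 in the CD31+CD45+ library). Cd34 did so in injured FAPs (10736 to 11933, against 17085). The 18 endothelial markers summed to 554868 in the CD31+CD45+ library, with Cdh5 as the most abundant gene, and to between 9339 and 19138 in the 8 libraries. That library was not purely endothelial, since its 12 mural cell markers (genes of vascular smooth muscle and pericytes) summed to 95529 and its 16 leukocyte markers to 35343. In bulk samples, fewer cells of a type and less RNA per cell cannot be told apart.

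In ASCs against FAPs, 8 of the 10 genes were called, that is, had an adjusted p under 0.05 (limma with Benjamini-Hochberg adjustment over all 13601 genes tested) and a log2 fold change beyond 0.58. Of these, 3 were higher (Notch2, Dll1 and Dll4) and 5 lower (Notch1, Notch3, Jag2, Hey1 and Heyl) in ASCs. Over all genes tested the same rule called 47.2%, with 23.4% higher and 23.8% lower. In injured FAPs against FAPs, 7 of the 10 were called, 1 higher (Dll4) and 6 lower (Notch3, Jag1, Jag2, Hes1, Hey1 and Heyl), beside 52.6% of all genes, 24.9% higher and 27.7% lower. In injured FAPs against ASCs, 7 were called, 3 higher (Notch3, Hey1 and Heyl) and 4 lower (Notch2, Dll1, Jag1 and Hes1), beside 50.8% of all genes, 25.0% higher and 25.8% lower. Close to 50% of all genes differed in each comparison, so the number of Notch genes called is to be read against a high background, and the first and second comparisons share the FAP libraries.

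The median log2 fold change of the 10 genes was -0.42 in ASCs against FAPs, where the median of all genes was 0.00. It was -0.89 in injured FAPs against FAPs (all genes -0.05) and 0.55 in injured FAPs against ASCs (all genes 0.02). Dll4, which was listed at 0 in FAPs, stayed the highest of the 10 at its lower bound in both comparisons against FAPs. The first and second of these medians, -0.42 and -0.89, therefore could not change with it.

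**Figure D1:**
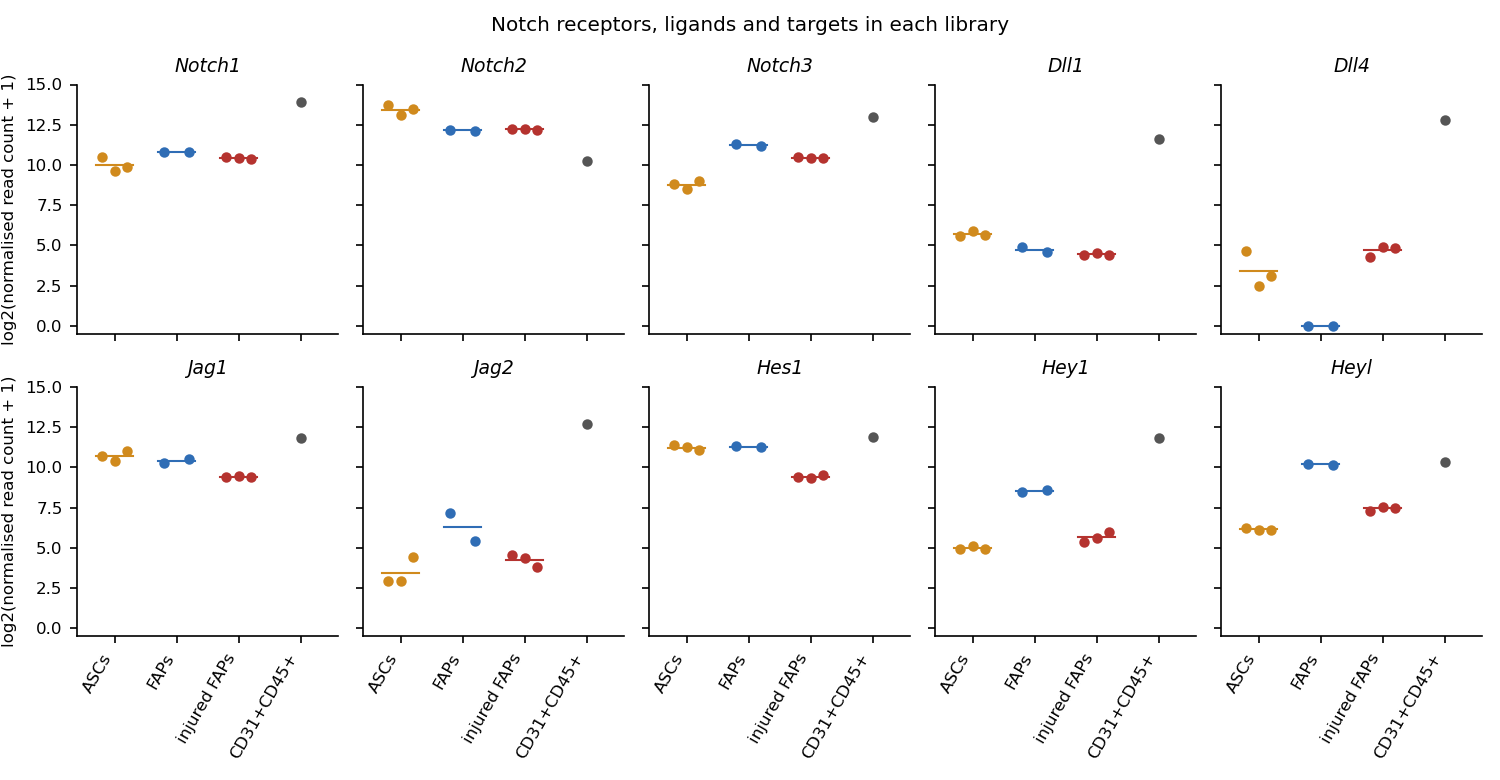
Each point is 1 library, plotted as log2 of the normalised read count + 1, with a bar at the mean of each group of 2 or 3 libraries and 1 point for the single CD31+CD45+ library. Notch3, Hey1 and Heyl are highest among the 8 compared libraries in FAPs, Hes1 and Jag1 are lowest in injured FAPs, and Notch2 alone is lower in the CD31+CD45+ library (1199) than in the other libraries.

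Among the receptors, Notch2 was the most abundant. Notch2 (chr3:98013527-98150361, plus strand), a receptor expressed by many mesenchymal cells, was counted at 13500, 8905 and 11542 normalised reads in ASCs, 4565 and 4477 in FAPs, and 4894, 4748 and 4659 in injured FAPs. Every ASC library lay above every FAP and injured FAP library, and the lowest injured FAP library lay above the higher FAP library by less than 100 reads. Its log2 fold change was 1.30 ± 0.15 (SE) in ASCs against FAPs (adjusted p = 4.28e-05) and -1.23 ± 0.13 in injured FAPs against ASCs (adjusted p = 1.92e-05), and with quantile normalization these became 0.67 and -0.74, still called. Between injured FAPs and FAPs it was 0.08 ± 0.15 (adjusted p = 0.671) and was not called, and its sign turned to -0.08 with quantile normalization and to -0.02 with a common 75th percentile.

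Notch1 (chr2:26457903-26516663, minus strand), a receptor of endothelial, blood and satellite cells, gave 1452, 798 and 954 normalised reads in ASCs, 1766 and 1820 in FAPs, and 1440, 1376 and 1334 in injured FAPs. FAPs were above all other compared libraries, whereas ASC replicate 1 reached the injured FAPs and the other ASC libraries lay below them. The log2 fold change of ASCs against FAPs was -0.79 ± 0.20 (adjusted p = 0.00620). For injured FAPs against FAPs it was -0.37 ± 0.20 (adjusted p = 0.123), and for injured FAPs against ASCs 0.42 ± 0.18 (adjusted p = 0.0609), neither of them called. Without ASC replicate 1 the last value became 0.66 and was called (adjusted p = 0.000107), and without ASC replicate 2 it became 0.23 (adjusted p = 0.207).

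Notch3 (chr17:32120820-32166852, minus strand), the receptor typical of vascular smooth muscle cells and pericytes, had 453, 366 and 502 normalised reads in ASCs, 2491 and 2354 in FAPs, and 1461, 1357 and 1366 in injured FAPs. The 3 groups did not overlap, with FAPs highest, injured FAPs between and ASCs lowest. ASCs were 5.50-fold below FAPs by the ratio of means (log2 fold change -2.47 ± 0.13, adjusted p = 3.02e-07). Injured FAPs were 1.74-fold below FAPs (-0.80 ± 0.13, adjusted p = 0.000430) and 3.17-fold above ASCs (1.67 ± 0.12, adjusted p = 9.39e-07).

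Levels of different genes were compared per kilobase of exon, with exon lengths from GENCODE M21 (GRCm38). On this scale Notch2 made up 89.0% of the summed level of the 3 receptors in ASCs, 49.6% in FAPs and 62.1% in injured FAPs (means over libraries). The share of Notch3 was 4.67% in ASCs, 35.4% in FAPs and 24.22% in injured FAPs, and that of Notch1 6.29%, 14.9% and 13.7%. Within each group the shares of Notch3 kept to a narrow range, with ASCs between 3.97 and 5.17% and FAPs between 34.9 and 36.0%. In the CD31+CD45+ library Notch1 took 50.02%, Notch3 45.0% and Notch2 5.03%.

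Of the ligands, Jag1 was the only one counted at over 150 normalised reads in any of the 8 libraries. Jag1 (chr2:137081456-137116644, minus strand), a Jagged ligand of vessels and many mesenchymal tissues, had 1644, 1363 and 2065 normalised reads in ASCs, 1245 and 1454 in FAPs, and 672, 697 and 683 in injured FAPs. ASCs and FAPs overlapped, and all 3 injured FAP libraries lay below all others. Jag1 fell 1.97-fold in injured FAPs against FAPs (log2 fold change -0.97 ± 0.16, adjusted p = 0.000344), and was 2.47-fold lower in injured FAPs than in ASCs (-1.28 ± 0.14, adjusted p = 1.97e-05). ASCs against FAPs gave 0.31 ± 0.16 (adjusted p = 0.114), not called, and 0.15 without ASC replicate 3, 0.20 without FAP replicate 1, 0.45 without ASC replicate 2, 0.42 without FAP replicate 2, 0.06 with quantile normalization and 0.10 with a common 75th percentile. Per kilobase, Jag1 made up 94.4% of the 4 ligands in ASCs, 92.2% in FAPs and 89.2% in injured FAPs, and 14.7% in the CD31+CD45+ library, where Dll4 took 44.4%.

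Dll1 (chr17:15367354-15376872, minus strand), a Delta-like ligand that satellite cells and their progeny use, was low, with 46.1, 58.9 and 49.0 normalised reads in ASCs, 28.5 and 23.5 in FAPs, and 20.4, 22.5 and 20.6 in injured FAPs. Behind these values stood 25 to 52 reads a library. The ASC libraries were above all FAP and injured FAP libraries, and both FAP libraries above the injured FAPs, though by few reads. ASCs were 1.97-fold above FAPs (log2 fold change 0.95 ± 0.27, adjusted p = 0.0121), a call that was lost without FAP replicate 2 (0.82, adjusted p = 0.0794), and quantile normalization gave 1.55. Injured FAPs were 2.43-fold below ASCs (-1.23 ± 0.24, adjusted p = 0.00122). The difference of injured FAPs from FAPs was -0.28 ± 0.27 (adjusted p = 0.384), not called, and turned to 0.23 with quantile normalization and to -0.15 without FAP replicate 1.

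Dll4 (chr2:119325784-119335962, plus strand), the Delta-like ligand of arterial and sprouting endothelium, was listed at 0 in both FAP libraries. It had 23.7, 4.53 and 7.53 normalised reads in ASCs (18, 4 and 6 reads) and 18.8, 28.7 and 28.2 in injured FAPs (24, 37 and 37 reads). ASC replicate 1 lay within the range of the injured FAPs, and the other ASC libraries lay below it. Against a floor of 3 reads in each FAP library, worth 2.85 and 2.82 normalised reads, Dll4 was at least 8.90-fold higher in injured FAPs (adjusted p = 0.000121) and at least 4.20-fold higher in ASCs (adjusted p = 0.00120). Without ASC replicate 1 the second bound was at least 2.13-fold. Dll4 passed the filter on low values through the injured FAPs, and with no filter the adjusted p was 0.000199 and 0.00162. These floors cover counting error on the FAP side only, and the mean of the higher group was taken without its own counting error. Whether the zeros of FAPs arose in the cells or in the making of the table cannot be told apart. The bounds hold only if the zeros are counts. Injured FAPs against ASCs gave a log2 fold change of 1.29 ± 0.58 (adjusted p = 0.0712), not called, which became 1.91 without ASC replicate 1 and was then called (adjusted p = 0.00884), and 0.83 without ASC replicate 2 (adjusted p = 0.221). It was also called with a pseudocount of 8 (0.84, adjusted p = 0.0474) and with a common 75th percentile (1.40, adjusted p = 0.0475).

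Jag2 (chr12:112907819-112929776, minus strand), a Jagged ligand of endothelium and epithelia, was counted at 6.59, 6.80 and 20.1 normalised reads in ASCs, 140 and 42.3 in FAPs, and 21.97, 19.4 and 13.0 in injured FAPs. FAPs were above the other libraries but, on the log2 scale, differed among themselves more than in any other of the 10 genes. ASC replicate 3 lay among the injured FAPs. The log2 fold change was -2.86 ± 0.59 in ASCs against FAPs (adjusted p = 0.00192) and -2.06 ± 0.59 in injured FAPs against FAPs (adjusted p = 0.0106). Without FAP replicate 1 these became -2.01, still called, and -1.21, no longer called (adjusted p = 0.148). Without FAP replicate 2 they became -3.71 and -2.91. Injured FAPs against ASCs gave 0.80 ± 0.53 (adjusted p = 0.205), not called, and 1.28 without ASC replicate 3 (adjusted p = 0.0517).

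**Figure D2:**
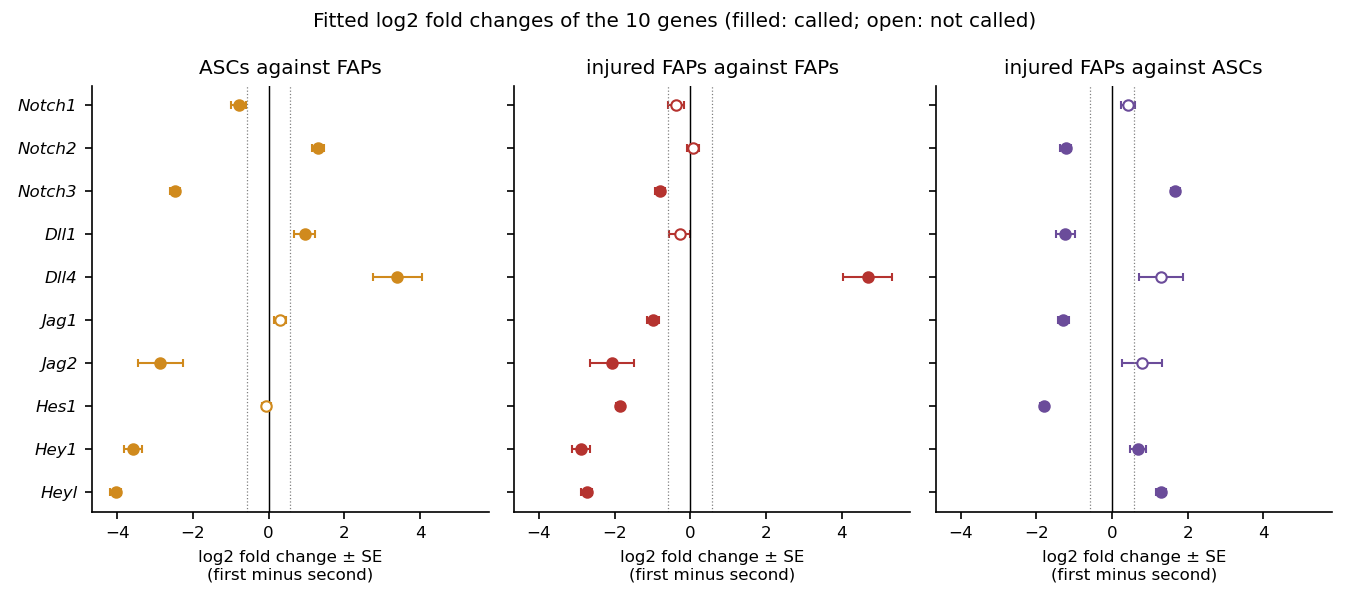
Points are fitted log2 fold changes with bars of 1 SE for the 10 genes in the 3 comparisons. Filled points were called, open points were not, and dotted lines mark 0.58 in each direction. Heyl and Hey1 lie farthest to the left in ASCs against FAPs (-4.03 and -3.57), and the fitted values of Dll4 against FAPs rest on a group listed at 0.

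The targets parted into 2 patterns, one of Hes1 and one shared by Hey1 and Heyl. Hes1 (chr16:30064384-30067796, plus strand), a transcriptional repressor that many signals besides Notch can induce, had 2636, 2466 and 2124 normalised reads in ASCs, 2569 and 2417 in FAPs, and 676, 657 and 728 in injured FAPs. ASCs and FAPs overlapped, and injured FAPs lay far below both. Hes1 fell 3.63-fold in injured FAPs against FAPs (log2 fold change -1.86 ± 0.11, adjusted p = 7.58e-07) and was 3.51-fold lower in injured FAPs than in ASCs (-1.80 ± 0.10, adjusted p = 2.00e-07). ASCs against FAPs gave -0.05 ± 0.11 (adjusted p = 0.695), not called, with a sign that turned without ASC replicate 3 (0.03), and quantile normalization gave -0.40 (adjusted p = 0.00638).

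Hey1 (chr3:8663359-8667256, minus strand), a repressor of the Hey family that Notch induces in endothelium and mesenchyme, had 29.0, 32.8 and 28.9 normalised reads in ASCs, 359 and 380 in FAPs, and 39.2, 48.0 and 61.8 in injured FAPs. FAPs stood far above both other groups, and each injured FAP library lay above each ASC library by a smaller step. ASCs were 12.2-fold below FAPs (log2 fold change -3.57 ± 0.24, adjusted p = 1.12e-06), and injured FAPs were 7.44-fold below FAPs (-2.89 ± 0.24, adjusted p = 3.72e-06). Injured FAPs were above ASCs by 0.68 ± 0.21 on the log2 scale (adjusted p = 0.0161). That last call was lost without injured FAP replicate 3 (0.51, adjusted p = 0.0751), with quantile normalization (0.55) and with a pseudocount of 8 (0.58), the last of these just short of the threshold.

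Heyl (chr4:123233556-123249875, plus strand), a Hey family member known from smooth muscle and satellite cells, gave 73.8, 68.0 and 67.8 normalised reads in ASCs, 1202 and 1118 in FAPs, and 157, 187 and 179 in injured FAPs. The groups did not overlap, in the same order as for Notch3 and Hey1. The ratio of means was 16.6 between FAPs and ASCs (log2 fold change of ASCs against FAPs -4.03 ± 0.15, adjusted p = 3.83e-08) and 6.65 between FAPs and injured FAPs (-2.73 ± 0.15, adjusted p = 4.50e-07). Injured FAPs were 2.50-fold above ASCs (1.30 ± 0.13, adjusted p = 1.11e-05).

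Per kilobase, Hes1 made up 98.1% of the 3 targets in ASCs, 78.2% in FAPs and 87.3% in injured FAPs. The share of Heyl was 1.14%, 14.5% and 8.83% in these groups, and that of Hey1 0.773%, 7.25% and 3.92%. Across all 10 genes on the same scale, Hes1 (1182 ± 128 per kilobase, SD, n = 3) and Notch2 (1049 ± 214) led in ASCs with overlapping libraries, followed by Jag1 (290 ± 60.7), Notch1 (75.05 ± 23.98) and Notch3 (54.4 ± 8.54). Notch1 and Notch3 overlapped there, as did Heyl (13.7 ± 0.666) with Dll1 (12.2 ± 1.59) and Dll4 (3.10 ± 2.68) with Jag2 (1.60 ± 1.11). Hey1 (9.26 ± 0.693) stood between these pairs.

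In FAPs the order per kilobase began with Hes1 (1224 ± 52.9, SD, n = 2), Notch2 (419 ± 5.77) and Notch3 (299 ± 12.02). Jag1 (232 ± 25.3) and Heyl (227 ± 11.7) followed and overlapped, and then came Notch1 (126 ± 2.71) and Hey1 (113 ± 4.47), whose libraries did not overlap. Jag2 (13.1 ± 9.89) and Dll1 (6.17 ± 0.839) overlapped, with Dll4 last at 0. In injured FAPs Notch2 (442 ± 11.01, n = 3) led Hes1 (337 ± 17.9), followed by Notch3 (172 ± 7.12), Jag1 (117 ± 2.09), Notch1 (97.2 ± 3.74), Heyl (34.1 ± 3.04) and Hey1 (15.2 ± 3.48). Dll4 (6.55 ± 1.44) and Dll1 (5.01 ± 0.272) overlapped, and Jag2 (2.60 ± 0.665) came last.

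The CD31+CD45+ library was higher than every one of the 8 libraries for 9 of the 10 genes, all except Notch2. For how many of all genes this held was not counted, so it cannot be called particular to Notch genes. Dll4 was 248-fold above the highest of the other libraries, Dll1 53.3-fold, Jag2 48.0-fold, Hey1 9.44-fold and Notch1 8.64-fold. The excess was 3.23-fold for Notch3, 1.72-fold for Jag1, 1.46-fold for Hes1 and 1.06-fold for Heyl. These ratios to 1 library have no replicate check.

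Each gene was then expressed as a percent of its CD31+CD45+ value and set beside the same percent for the 18 endothelial markers. The median endothelial marker stood at 0.122%, 0.0905% and 0.0665% in ASCs, 1.36% and 0.634% in FAPs, and 0.445%, 0.610% and 0.310% in injured FAPs. Single markers ran up to 51.2% in ASCs (Tek) and 19.2% in FAPs (Eng), so single markers spread widely around the median. Jag2 (0.0982 to 0.299% in ASCs, 2.08% and 0.631% in FAPs, 0.193 to 0.327% in injured FAPs) and Dll4 (0.0637 to 0.333% in ASCs, 0.265 to 0.403% in injured FAPs) lay within a few times the endothelial median in the libraries where they were counted. Jag2 had in common with that median that FAP replicate 1 was the highest of the 8 libraries.

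For Dll1 the ASCs stood between 1.47 and 1.88%, the FAPs at 0.909% and 0.7497%, and the injured FAPs between 0.650 and 0.716%. Hey1 was at 10.01% and 10.59% in FAPs, with ASCs between 0.804 and 0.915% and injured FAPs between 1.09 and 1.72%. For Heyl the FAP values were 94.0% and 87.4%, for Hes1 66.8% and 62.8%, for Jag1 35.0% and 40.9%, for Notch3 31.0% and 29.3% and for Notch1 11.2% and 11.6%. Notch2 was at 373 to 1126% in the 8 libraries.

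**Figure D3:**
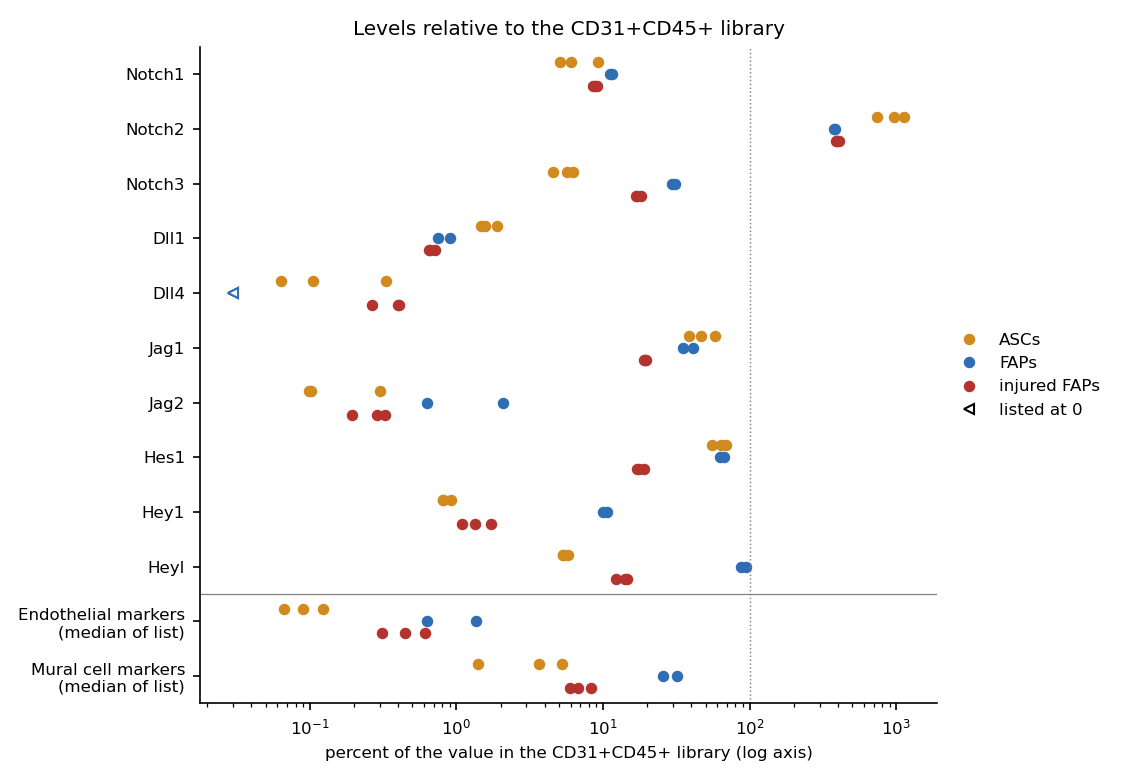
Each point is 1 of the 8 libraries, as a percent of the value in the CD31+CD45+ library on a log axis, for the 10 genes and for the median of the endothelial and the mural cell markers. Open triangles at the left edge mark values listed at 0. Dll4 where counted, Jag2, and Dll1 in FAPs and injured FAPs lie near the endothelial median. Heyl in FAPs (94.0% and 87.4%) and Notch2 in all 8 libraries lie far above it. The mural cell median in FAPs is at 31.9% and 25.6%, near Notch3 (31.0% and 29.3%).

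The zeros of Dll4 in FAPs stood beside others. Of the 18 endothelial markers, 4 (Emcn, Cldn5, Vwf and Mmrn2) were listed at 0 in both FAP libraries, and all 18 were counted in every ASC and injured FAP library. Pecam1, the gene of CD31, was at 195 and 0 in FAPs. Of the 5 arterial markers, Gja5 and Bmx were at 0 in both FAP libraries, though Bmx was at 0 in all ASC libraries too and Gja5 in ASC replicates 2 and 3, and of the 4 lymphatic markers Lyve1 and Ccl21a, the latter at 0 in all 9 libraries. Of the 16 leukocyte markers, 13 were at 0 in both FAP libraries, Ptprc (CD45) among them, but Cd3e was at 0 in all 8 libraries and Ptprc also in ASC replicates 1 and 3. Other endothelial markers were highest in FAPs, with Cdh5 at 1438 and 686 there, while ASCs lay between 59.0 and 123 and injured FAPs between 537 and 663. In all, 9 of the 18 had both FAP libraries above all ASC and injured FAP libraries. The part of these markers in the Dll4 and Jag2 values was not tested.

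Mural cell markers were highest in FAPs, as were Notch3, Hey1 and Heyl. The 12 markers summed to 5853, 3726 and 4620 normalised reads in ASCs, 26518 and 23445 in FAPs, and 10126, 9993 and 10371 in injured FAPs. Both FAP libraries were above all others for 10 of the 12. The most abundant was Abcc9 in ASCs (2402 to 3902), Rgs5 in FAP replicate 1 (6148), Acta2 in FAP replicate 2 (4848) and Cspg4 in injured FAPs (3881 to 4655), and Higd1b was at 0 in all ASC libraries. Each injured FAP library was above each ASC library for only 6 of the 12, and Abcc9 and Kcnj8 went the other way. Without Cspg4 the sum was 5637, 3542 and 4408 in ASCs, 22852 and 19268 in FAPs, and 5470, 6112 and 5965 in injured FAPs, so ASCs and injured FAPs overlapped.

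As a percent of the FAP mean, the mural sum was 18.9% in ASCs and 40.7% in injured FAPs. Without Cspg4 it was 21.5% and 27.8%, and libraries of these groups overlapped. On the same scale Notch3 was at 18.2% and 57.6%, Hey1 at 8.18% and 13.4%, and Heyl at 6.02% and 15.03%. Hes1 was at 96.6% and 27.5%. The endothelial sum was at 57.2% and 64.6%, but Tek and Eng carried it. Without these genes the other 16 endothelial markers were at 11.3% in ASCs and 43.9% in injured FAPs (734, 490 and 393 normalised reads in ASCs, 5972 and 3555 in FAPs, and 2047, 2537 and 1694 in injured FAPs). The part of mural and of endothelial cells in the Notch3, Hey1 and Heyl results was not tested.

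**Figure D4:**
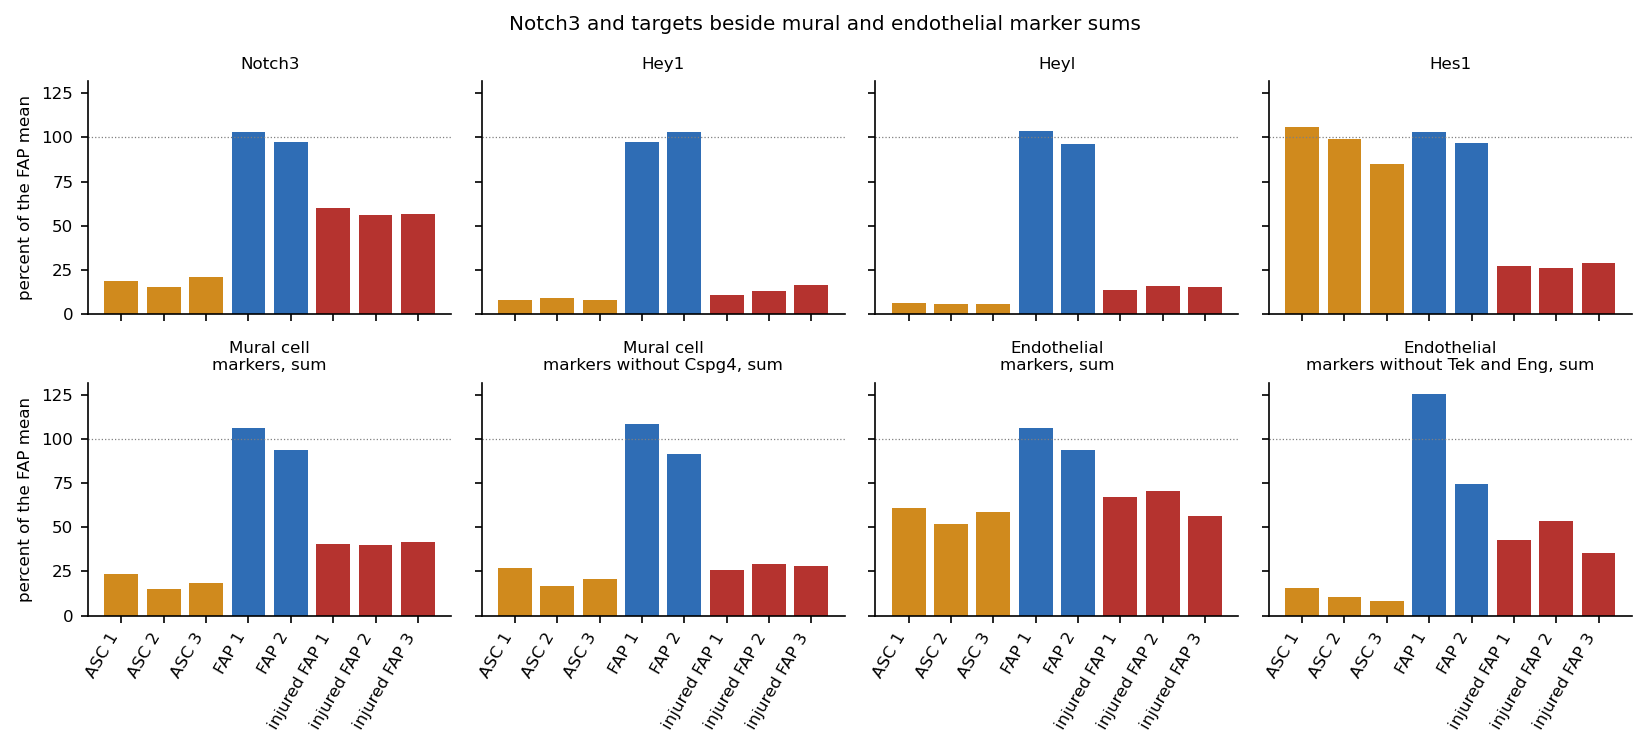
Bars give, for each of the 8 libraries, the normalised read count as a percent of the mean of the 2 FAP libraries, for Notch3, Hey1, Heyl and Hes1 and for the summed mural and endothelial markers, with and without the genes that carry these sums. Notch3, Hey1, Heyl, the mural sum and the endothelial sum without Tek and Eng are lowest in ASCs (18.2, 8.18, 6.02, 18.9 and 11.3% on average). Hes1 is lowest in injured FAPs (27.5%). Without Cspg4 the mural sum averages 21.5% in ASCs and 27.8% in injured FAPs, with overlapping libraries.

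Other marker lists also differed between the groups or set single libraries apart. Muscle fibre markers summed to 710 and 868 in FAPs, with ASCs between 109 and 151 and injured FAPs between 213 and 265, and with all 6 highest in FAPs and Acta1 or Tnnt3 most abundant. Satellite cell markers were near the floor, where ASCs had sums between 3.77 and 9.06, FAPs 74.2 and 154, and injured FAPs between 56.4 and 68.3, and Pax7 was at 0 in ASCs. The 10 FAP and ASC markers, led by Col1a1 or Col3a1, summed to 188.9% of the FAP mean in ASCs and 42.7% in injured FAPs, and both FAP libraries were above all injured FAP libraries for 7 of the 10. Pdgfra went the other way, with means of 12988 in ASCs, 17755 in FAPs and 24051 in injured FAPs. Ly6a was also higher in injured FAPs (21308 to 24855) than in FAPs (16542 and 10823). Thy1 overlapped between these groups (means of 9282 and 9002). Arterial markers, led by Efnb2, lay between 881 and 2097 in ASCs, at 885 and 1107 in FAPs and between 776 and 786 in injured FAPs, and lymphatic ones, led by Prox1, between 145 and 217, at 180 and 215, and between 78.6 and 103.8. Efnb2 carried the arterial sum, and the other 4 arterial markers summed to 40.8, 5.66 and 5.02 in ASCs, 350 and 196 in FAPs, and 91.0, 110 and 96.1 in injured FAPs. Their part in the Notch results was not tested.

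Epithelial and mesothelial markers summed to 1415 in ASC replicate 1 and 441 in ASC replicate 3, led by Krt8, but to 57.8 in ASC replicate 2, where Krt8, Krt18 and Epcam were at 0, and to 51.3 to 86.2 in the FAP and injured FAP libraries. Leukocyte markers summed to 3475 in injured FAP replicate 2, led by Lyz2, against 708 and 632 in the other injured FAP libraries, 383 to 527 in ASCs and 38.0 and 68.7 in FAPs. Without both ASC replicate 1 and injured FAP replicate 2, an alternative chosen after the marker values were seen, Dll4 fell under the filter on low values. Then 7 Notch genes were called in ASCs against FAPs, 6 in injured FAPs against FAPs and 8 in injured FAPs against ASCs, where Notch1 was gained. Of all 13558 genes tested there, 6070, 7221 and 6524 were called in these comparisons.

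The other genes of the pathway came from a list of 70, of which 69 were in the table and 60 were tested. In ASCs against FAPs 23 of the 60 were called, 8 higher and 15 lower, with a median log2 fold change of 0.07. For injured FAPs against FAPs these were 28, 6 and 22, with a median of -0.42, and for injured FAPs against ASCs 29, 8 and 21, with a median of -0.31. The shares called, 38.3%, 46.7% and 48.3%, were below the 47.2%, 52.6% and 50.8% of all genes. Neurl3, listed at 0 in FAPs, kept the largest rise of the list at its bounds, so the medians against FAPs could not change with it.

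By role, none of the 10 protease genes, which encode the ADAM, furin and gamma-secretase proteins that cut the receptor, was called in ASCs against FAPs, where 47.2% of all genes were. In injured FAPs against FAPs 4 were called (40%, with 52.6% of all genes), 2 of them higher, among these Adam10, the main sheddase of Notch. Adam10 rose from 1278 and 1286 normalised reads in FAPs to 2234, 2375 and 2382 in injured FAPs (1.82-fold, log2 fold change 0.86 ± 0.10, adjusted p = 4.99e-05). Genes of endocytosis and ubiquitin transfer, which act on ligands and receptors, were called in 8 of 14 cases there (57.1%, with 52.6% of all genes), 7 lower and 1 higher, with 27.7% and 24.9% of all genes.

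Within the nuclear complex, Rbpj, the DNA-binding partner of the Notch intracellular domain, had 1821 and 1722 normalised reads in FAPs, 3545, 3202 and 3313 in injured FAPs, and 3250, 2516 and 2974 in ASCs. FAPs were below both other groups, which overlapped. Rbpj rose 1.89-fold in injured FAPs against FAPs (log2 fold change 0.92 ± 0.12, adjusted p = 6.96e-05). Crebbp, a histone acetyltransferase, was 1.85-fold higher in ASCs than in FAPs (0.88 ± 0.14, adjusted p = 0.000328), a call lost with quantile normalization (0.51). Kat2a, another acetyltransferase, was 1.97-fold higher in injured FAPs than in ASCs (1.00 ± 0.13, adjusted p = 6.36e-05).

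Notch4, the receptor most restricted to endothelium, had 36.9, 41.9 and 60.3 normalised reads in ASCs, 230 and 174 in FAPs, 397, 422 and 367 in injured FAPs and 9125 in the CD31+CD45+ library. The 3 groups did not overlap, and injured FAPs were highest, unlike for Notch3. It was 4.36-fold lower in ASCs than in FAPs (log2 fold change -2.12 ± 0.23, adjusted p = 2.54e-05) and rose 1.96-fold in injured FAPs against FAPs (0.98 ± 0.23, adjusted p = 0.00335). Injured FAPs were 8.53-fold above ASCs (3.09 ± 0.20, adjusted p = 5.41e-07).

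Of the non-canonical ligand genes, Dlk1 and Dner were both highest in FAPs. Dlk1, a membrane protein that restrains adipogenesis, had 121, 133 and 110 normalised reads in ASCs, 821 and 675 in FAPs, and 444, 308 and 447 in injured FAPs. It was 6.16-fold lower in ASCs than in FAPs (adjusted p = 1.88e-06), 1.87-fold lower in injured FAPs than in FAPs (adjusted p = 0.00163) and 3.29-fold higher in injured FAPs than in ASCs (adjusted p = 9.64e-06). Dner, a Delta-like membrane protein of neurons, had 175, 146 and 87.9 in ASCs, 255 and 277 in FAPs, and 19.6, 13.9 and 22.1 in injured FAPs. Its fall was the largest of the list in injured FAPs against FAPs (14.3-fold, log2 fold change -3.79 ± 0.31, adjusted p = 3.68e-06), and injured FAPs were 7.35-fold below ASCs (adjusted p = 9.74e-06).

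Among the E3 ligases, Neurl3 gave the largest rise of the list in ASCs against FAPs. It was listed at 0 in both FAP libraries, with 237, 126 and 198 normalised reads in ASCs and 10.2, 32.5 and 5.34 in injured FAPs. It was at least 65.9-fold higher in ASCs (adjusted p = 4.48e-06) and at least 5.65-fold higher in injured FAPs (adjusted p = 0.000406). These bounds are against the floor of 3 reads in each FAP library, with the same limits as for Dll4. Without injured FAP replicate 2 the second bound was at least 2.74-fold. Neurl3 passed the filters through the ASCs, and with no filter on low values the adjusted p was 1.97e-05 and 0.00105. Neurl1b, of the same Neuralized family, was 9.40-fold lower in ASCs than in FAPs (45.0 ± 18.1, SD, n = 3, and 424 ± 58.3, n = 2, adjusted p = 1.31e-05) and 5.95-fold higher in injured FAPs than in ASCs (adjusted p = 1.86e-05). Of the Deltex family, which ubiquitinates Notch, Dtx2 and Dtx3l were higher in ASCs than in FAPs (2.48-fold and 2.88-fold), and Dtx1, Dtx3 and Dtx4 were lower there (3.51-fold, 2.07-fold and 1.76-fold). Dtx1, Dtx4 and Dtx3 were lower in injured FAPs than in FAPs (4.56-fold, 4.34-fold and 3.38-fold), and Dtx2 was 4.04-fold lower in injured FAPs than in ASCs. The adjusted p of these Deltex results lay between 5.22e-07 and 0.000438.

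Among the co-repressors of the Groucho family, Tle4 was 3.05-fold higher in ASCs than in FAPs (log2 fold change 1.59 ± 0.15, adjusted p = 9.35e-06). Tle2 was 4.01-fold lower in injured FAPs than in FAPs (-1.98 ± 0.18, adjusted p = 8.69e-06). Tle4 and Tle1 were 4.31-fold and 2.84-fold lower in injured FAPs than in ASCs (adjusted p = 4.25e-07 and 1.47e-06). Hdac1, a histone deacetylase of such complexes, was 1.85-fold higher in injured FAPs than in FAPs (0.89 ± 0.09, adjusted p = 1.95e-05).

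**Figure D5:**
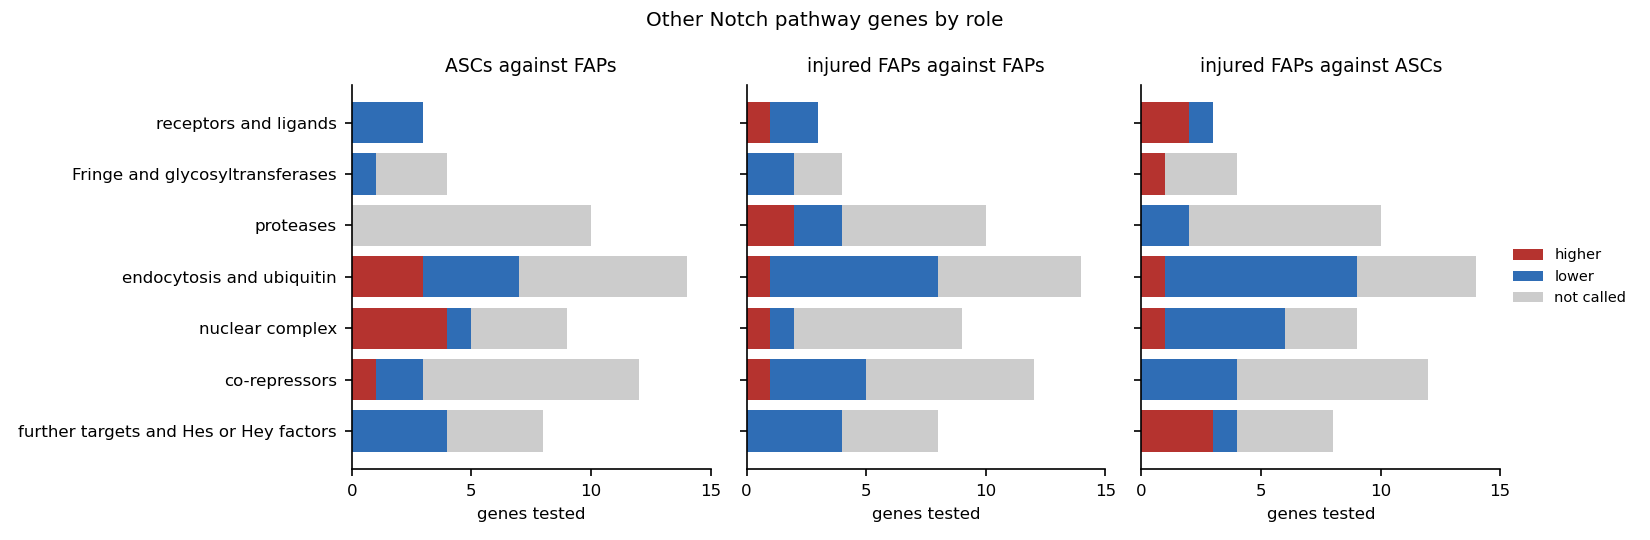
Bars count the 60 tested genes of the pathway list by role, split into those higher, lower and not called in each of the 3 comparisons. None of the 10 proteases was called in ASCs against FAPs, where 47.2% of all genes were, and 7 of the 14 genes of endocytosis and ubiquitin transfer were lower in injured FAPs against FAPs, where 27.7% of all genes were lower.

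The last role, further targets and Hes or Hey factors, held 8 tested genes, Bhlhe and Id genes among them. In ASCs against FAPs 4 were lower and 0 higher, and likewise 4 and 0 in injured FAPs against FAPs. The share called was 50% in both, near the 47.2% and 52.6% of all genes. Over all genes, 23.8% and 27.7% were lower in these comparisons. Hey2, in both counts, passed the filter on low values through the FAPs. Id1, a target of BMP signals that Notch also reaches, had 92.2, 97.4 and 129 normalised reads in ASCs, 447 and 506 in FAPs, and 208, 165 and 178 in injured FAPs. It was 4.48-fold lower in ASCs than in FAPs (log2 fold change -2.17 ± 0.19, adjusted p = 6.36e-06).

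Nrarp and Hey2, named after their values were seen, are direct Notch targets with means under 50. Nrarp had 42.2, 1.13 and 3.77 normalised reads in ASCs, 97.0 and 91.3 in FAPs, 29.8, 37.2 and 37.4 in injured FAPs and 4380 in the CD31+CD45+ library. Hey2 had 6.59, 6.80 and 0 in ASCs, 55.2 and 64.9 in FAPs, 6.28, 8.53 and 1.52 in injured FAPs and 207 in the CD31+CD45+ library. Among the 8 compared libraries both FAP libraries were highest for both genes, and ASC replicate 1 stood apart for Nrarp. Both were called in ASCs against FAPs (adjusted p = 0.00754 for Nrarp and 0.00367 for Hey2). In injured FAPs against FAPs Nrarp was not called (log2 fold change -1.42, adjusted p = 0.213), and Hey2 was (-3.44, adjusted p = 0.00716).

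Lfng encodes the Fringe glycosyltransferase that shifts receptors towards Delta-like ligands. Its values were 75.1, 29.4 and 60.3 normalised reads in ASCs, 211 and 247 in FAPs, and 107, 101 and 80.8 in injured FAPs. FAPs were above all others, and the injured FAPs were above the ASCs by less. Lfng was 4.17-fold lower in ASCs than in FAPs (log2 fold change -2.14 ± 0.34, adjusted p = 0.000391). Injured FAPs were 1.75-fold above ASCs (0.89 ± 0.31, adjusted p = 0.0257), a call lost with quantile normalization (0.67) and without ASC replicate 2 (0.50), injured FAP replicate 1 (0.81) or injured FAP replicate 2 (0.85).

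Of the genes highest in FAPs, upstream sequences are shown for Lfng and Hey2, which hold the motif searched, and for Notch3, which does not. They were picked after the values and the matches were seen, and other genes highest in FAPs, such as Nrarp, Dlk1 and Neurl1b, had no match. Spen, also highest in FAPs among the 8 compared libraries, had a match 9 to 3 bases before its start. The RBPJ core motif GTGGGAA was searched on both strands in the 250 bases before the start of each gene in RefSeq (GRCm38.p6). It was found in 5.42% of all 32851 windows, in 0 of the 8 windows of the 7 genes among the 10 that had one (Notch1, Notch2, Notch3, Dll1, Dll4, Jag1 and Jag2), and in 7 of the 71 windows (9.86%) of the 55 other pathway genes with a window. The bases from 250 to 31 before the start are given 5′ to 3′ along the gene, outside annotated exons, with the motif or its reverse complement in capitals. They span chr5:140607091-140607310 (plus strand) for Lfng, chr10:30842814-30843033 (minus strand) for Hey2 and chr17:32166921-32167140 (minus strand) for Notch3.
Lfng: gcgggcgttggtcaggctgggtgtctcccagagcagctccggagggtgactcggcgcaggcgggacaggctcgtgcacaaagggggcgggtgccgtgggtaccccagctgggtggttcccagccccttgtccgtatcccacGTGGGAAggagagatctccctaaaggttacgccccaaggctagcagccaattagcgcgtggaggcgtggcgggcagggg
Hey2: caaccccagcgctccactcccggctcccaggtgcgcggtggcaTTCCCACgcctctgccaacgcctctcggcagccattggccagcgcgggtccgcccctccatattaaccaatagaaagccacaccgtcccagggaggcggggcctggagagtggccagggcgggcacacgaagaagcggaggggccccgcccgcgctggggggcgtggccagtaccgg
Notch3: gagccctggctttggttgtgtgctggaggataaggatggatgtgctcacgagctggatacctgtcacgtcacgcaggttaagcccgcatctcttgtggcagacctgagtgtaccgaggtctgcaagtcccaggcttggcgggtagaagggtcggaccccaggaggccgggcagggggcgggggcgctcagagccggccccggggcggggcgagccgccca
The motif lies 109 to 103 bases before the start of Lfng on the strand of the gene and 207 to 201 bases before that of Hey2 on the other strand, and these letters are not in the Notch3 window. A match is a description of the sequence and no measure of binding.

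Genes outside the 10 with the most similar pattern were sought by the root mean square difference of centred log2 values over the 8 libraries, among tested genes with a mean of at least 100. Nearest to Notch3 were Ednra (0.115) and Arhgef6 (0.127), to Notch1 Wdr59 (0.0938) and Mmp17 (0.0944), and to Notch2 Chp1 (0.0582) and Ubap1 (0.0693). For the ligands they were Calcrl (0.101) and C1qtnf6 (0.109) for Jag1, and Slc38a10 (0.130) and Arhgef10l (0.133) for Dll1. Jag2, with Adgrf5 (0.523) and Colgalt2 (0.548), and Dll4, with Rdh10 (0.612) and Lmnb1 (0.614), had the largest distances, which lay within the SD of these genes within groups (0.792 and 0.733). Hes1 was nearest to Satb1 (0.117) and Pink1 (0.125), Hey1 to Clec14a (0.224) and Alox12 (0.280), and Heyl to Fgf1 (0.248) and Cmklr1 (0.253). These distances of the 3 targets were above their SD within groups (0.1151 for Hes1, 0.215 for Hey1 and 0.0989 for Heyl).

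Overlap with neighbouring genes bears on some counts, because the strand setting of the counting is not given in the sources used here. In GENCODE M21, Jag1, Jag2, Hes1, Hey1 and Heyl share no exon bases with another gene. Notch1 shares 9.76% of its exon bases, Notch2 5.02%, Notch3 6.03%, Dll1 20.6% and Dll4 5.56% with 6 other genes in all, 5 of them on the opposite strand. Of these 6, 0610009E02Rik beside Notch1 was at 1.57 to 19.0 normalised reads in the 9 libraries, and Gm14207 beside Dll4 at 0 to 3.05 in the 8 libraries and at 159 in the CD31+CD45+ library. The other 4 have no value here, so reads of Dll1 and of its antisense neighbour cannot be told apart.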

How the data were processed

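RNA-seq libraries of sorted mouse cells were compared in 3 groups (ASCs, FAPs, injured FAPs). Per the methods of the study, the authors used fastq_illumina_filter 0.1 and FastQC 0.11.9 on the reads, HISAT2 2.2.1 for alignment (mm10), featureCounts (Subread 2.0.1) for counting and DESeq2 1.34.0 for testing. The authors deposited the values as normalised signal, and how they were scaled is not described. Multiplied by 1 factor per library, 100% of the values became whole reads (tolerance 0.01). The handling of strand and of multi-mapping reads is not given in the sources used here, and 2 unnamed columns were empty.

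Values were tested as log2(value + 1) with limma 3.58.1 (trended variance, 5 residual degrees of freedom) in R 4.3.3 on 13601 genes, those whose mean reached 10. The code was tested on simulated data. Tables and figures used Python 3.11.15, pandas 2.3.3 and matplotlib 3.10.9. Alternatives were other pseudocounts, filters and scalings, a replicate block, fits of only the groups compared, each library left out, and edgeR 4.0.16 and DESeq2 1.42.0 on recovered reads. One more, without ASC replicate 1 and injured FAP replicate 2 together, was chosen after seeing the data. limma called 6416 genes in ASCs against FAPs, 7153 in injured FAPs against FAPs and 6909 in injured FAPs against ASCs. edgeR called 6450, 7303 and 7000, and DESeq2 6412, 7227 and 6865. Pathway genes were named by rule, up to 5 per direction and comparison with the largest change among called genes whose mean reached 50 and whose groups did not overlap. Genes of similar pattern were the 2 nearest per Notch gene by root mean square difference. Members and lists were chosen with earlier results of these data known.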

Additional observations from a re-analysis of the deposited data

Results flagged for a closer look

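The single CD31+CD45+ library entered none of the comparisons, and for 9 of the 10 Notch genes its value was above every library of the NaCl groups. The values, with the highest NaCl library in brackets, were 15736.6 for Notch1 (1820.4), 8038.6 for Notch3 (2491.3), 3137.3 for Dll1 (58.9), 7115.8 for Dll4 (23.7) and 3557.9 for Jag1 (2065.1). They were 6710.9 for Jag2 (139.8), 3846.7 for Hes1 (2636.0), 3589.3 for Hey1 (380.1) and 1279.1 for Heyl (1201.9). With 1 library the difference was not tested. That library came from glycerol-injured muscle, and it was also above every injured FAP library for the same 9 genes. The share of all genes for which this held was not counted.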

How the results depend on the processing

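Of the fold changes of the 10 Notch genes under the alternatives, 544 kept direction and side of the threshold, 5 gained and 5 lost a call, and 4 changed sign, none of these a called value. The changes of sign were Notch2 (-0.076 with quantile normalization, -0.0188 with a common 75th percentile) and Dll1 (0.23 with quantile normalization) in injured FAPs against FAPs, and Hes1 in ASCs against FAPs (-0.1228 to 0.0329 when each library was left out, positive without ASC replicate 3). The cause was not tested. With a filter at a mean of 50, 5 Notch genes were called in ASCs against FAPs, because fewer genes were tested. Dll1, Dll4 and Jag2 fell under that filter. In the 3 comparisons 5, 5 and 6 Notch genes were then called, beside 5341, 6112 and 5877 of all 11644 genes. Leaving out each ASC or injured FAP library gave 8, 7 and 6 to 9 called Notch genes in the 3 comparisons. Of all genes, 6106 to 6688, 6722 to 7370 and 6590 to 7198 were called in these fits. The changes of Dll1 and Jag2 without 1 FAP library are given above. A common 75th percentile shifted the median of all genes to -0.20, -0.15 and 0.13, with 2452 higher and 4142 lower, 3012 and 4201, and 3972 and 3113 genes. The alternative without both ASC replicate 1 and injured FAP replicate 2 was chosen after seeing the data, and Dll4 had no value there.

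Replicates share only a number. With a replicate block the called Notch genes stayed at 8, 7 and 7, beside 6287, 7046 and 6861 of all 13601 genes. The other pathway genes called were 25, 28 and 29, and same-number pairs correlated between -0.0545 and 0.0446.

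Groups hold 2 or 3 libraries, which limits these p-values, and a lone FAP library left by omission was assumed to vary like the other groups. Dll4 and Jag2 rest on few reads, and a value listed at 0 gives only a bound.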
